A study of Mus musculus with 3 samples.

Results

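The 6 Pcgf genes, Pcgf1, Pcgf2, Bmi1, Pcgf3, Pcgf5 and Pcgf6, were followed in RNA-seq of mouse embryonic stem (ES) cells with and without Pcgf1. Members were found by their gene symbol in the deposited lists of transcript events, and all 6 stood under their own symbol in all 3 libraries, 6 of 25346 genes measured in this way. None shared its locus name with another gene. The value of a gene is the larger of its summed first-exon and its summed last-exon FPKM (fragments per kilobase of transcript, scaled to the size of the library), a level per length that allows genes to be set side by side, and for the 6 members both sums were equal in every library.

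The study compared 3 groups of ES cells of strain C57BL/6, with 1 library in each. WT cells were unmodified. Pcgf1-/- cells were made with Cas9 and a pair of sgRNAs against exons 2 and 3 of Pcgf1. They were grown from a picked colony, so that they stand for 1 clone. Pcgf1-/-+Pcgf1 cells, here also called rescued cells, are Pcgf1-/- cells infected with a lentivirus that carries an N-terminally FLAG-tagged Pcgf1 cDNA, which serves to ask whether a difference in the knockout is undone by the protein. All 3 groups were grown with serum and leukemia inhibitory factor on mitomycin-C treated embryonic fibroblasts, and polyadenylated RNA was sequenced. With 1 library per group there is no spread between cultures and no test, and every difference given here compares 3 libraries, not 3 conditions. In such bulk samples fewer cells of a type and less RNA per cell cannot be told apart.

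Polycomb repressive complex 1 (PRC1) places ubiquitin on histone H2A and keeps developmental genes silent in ES cells. Its catalytic core is a dimer of a RING protein, Ring1 or Rnf2, with 1 of the 6 Pcgf proteins, and the Pcgf protein decides which further subunits join. Pcgf1 defines PRC1.1, which Kdm2b brings to CpG islands and which holds Bcor. Pcgf2 (also called Mel18) and Bmi1 define PRC1.2 and PRC1.4, whose canonical forms hold Cbx and Phc proteins. Pcgf3 and Pcgf5 define PRC1.3 and PRC1.5 with Auts2 and casein kinase subunits, and Pcgf6 defines PRC1.6 with L3mbtl2, E2f6, Mga and Max.

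The part of the coding sequence that the 6 genes share is the stretch for the RING finger, the zinc-binding fold through which a Pcgf protein pairs with Ring1 or Rnf2. It is shown here because it is the stretch on which the knockout of Pcgf1 turns. The sequences are coding strand from GENCODE vM21 (mm10), 5′ to 3′, and capitals mark the 8 codons for the cysteines and the histidine that hold zinc.
Pcgf1: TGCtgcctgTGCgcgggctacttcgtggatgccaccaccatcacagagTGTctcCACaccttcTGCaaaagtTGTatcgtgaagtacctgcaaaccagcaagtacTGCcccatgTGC
Pcgf2: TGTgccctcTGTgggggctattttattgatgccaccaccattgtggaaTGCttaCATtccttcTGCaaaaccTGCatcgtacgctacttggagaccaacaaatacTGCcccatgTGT
Bmi1: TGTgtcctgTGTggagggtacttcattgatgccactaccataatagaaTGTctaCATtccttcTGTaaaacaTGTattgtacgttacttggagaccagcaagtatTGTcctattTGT
Pcgf3: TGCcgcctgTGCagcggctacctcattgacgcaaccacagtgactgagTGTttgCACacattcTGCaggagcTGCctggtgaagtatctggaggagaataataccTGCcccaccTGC
Pcgf5: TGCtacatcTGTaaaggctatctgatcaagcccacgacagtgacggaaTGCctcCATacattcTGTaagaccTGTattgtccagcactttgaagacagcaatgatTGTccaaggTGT
Pcgf6: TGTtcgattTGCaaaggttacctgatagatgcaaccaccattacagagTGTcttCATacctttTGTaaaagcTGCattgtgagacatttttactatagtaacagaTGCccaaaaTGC
Each stretch has 117 bases (39 codons) and the 8 codons stand at the same places in all 6. This spacing was found in 12 of 22500 genes with a coding sequence (0.0533%), the 6 members included. Each stretch runs over an exon boundary. It lies at chr6:83078940-83079171 in exons 2 and 3 of Pcgf1, at chr11:97692767-97693476 in exons 3 and 4 of Pcgf2, at chr2:18681863-18682278 in exons 2 and 3 of Bmi1, at chr5:108473846-108475165 in exons 4 and 5 of Pcgf3, at chr19:36412176-36434625 in exons 2 and 3 of Pcgf5 and at chr19:47048841-47049050 in exons 2 and 3 of Pcgf6. Pcgf2 and Pcgf6 lie on the minus strand and the other four on the plus strand.

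Within this stretch Pcgf2 and Bmi1 were the closest pair, with 94 of 117 bases identical (80.3%). Pcgf1 shared 72.6% of its bases with Bmi1, 71.8% with Pcgf2, 70.1% with Pcgf3, 65.0% with Pcgf6 and 62.4% with Pcgf5. Bmi1 and Pcgf3 were the most distant pair, with 57.3%.

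In WT cells Pcgf2 had 45.9 FPKM, Pcgf6 26.0, Pcgf1 14.0, Pcgf3 11.3, Pcgf5 8.12 and Bmi1 0.602. Among the 12907 genes above 0 in this library Pcgf2 held rank 1430 and Pcgf6 rank 2446, whereas Bmi1 held rank 9809. Of the pair that defines canonical PRC1, the mRNA was therefore almost all that of Pcgf2, which exceeded Bmi1 76.1-fold in WT, 67.8-fold in Pcgf1-/- and 60.2-fold in Pcgf1-/-+Pcgf1. Pcgf2, Pcgf6 and Bmi1 held the first, the second and the last place in all 3 libraries. Pcgf1, Pcgf3 and Pcgf5, which in all libraries lay between 5.88 and 14.0 FPKM, changed places. The order was Pcgf1, Pcgf3, Pcgf5 in WT and Pcgf5, Pcgf3, Pcgf1 in both other libraries, and with 1 library per group no spread says whether neighbours in these orders differ.

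**Figure D1:**
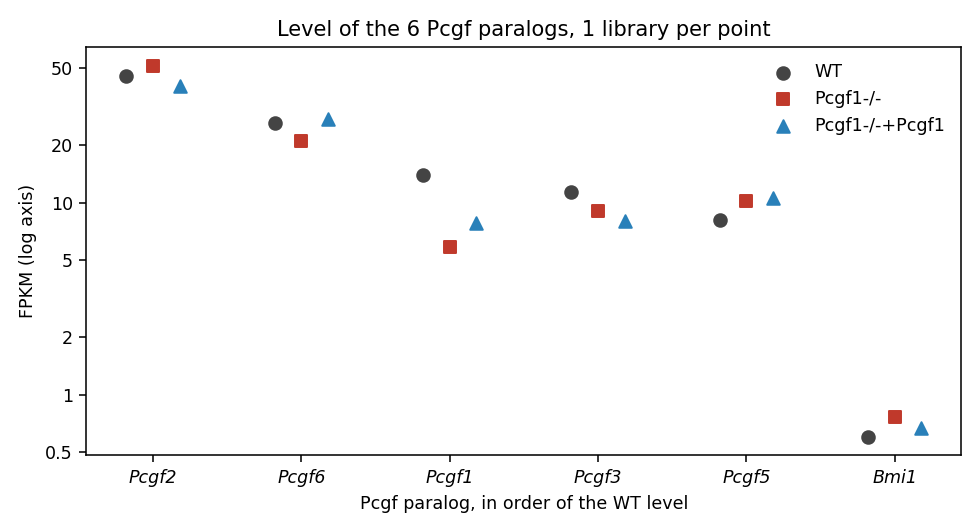
FPKM of each Pcgf gene on a log axis, with 1 point per library (grey circle WT, red square Pcgf1-/-, blue triangle Pcgf1-/-+Pcgf1). The 3 points of Pcgf1 lie at 14.0, 5.88 and 7.86, while those of the other 5 genes lie close together, with Bmi1 under 1 in every library.

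Pcgf1 (ENSMUSG00000069678, chr6:83077869-83080855) had 14.0 FPKM in WT, 5.88 in Pcgf1-/- and 7.86 in the rescued cells. The WT library was the highest, and the library with the FLAG-tagged cDNA lay nearer to the knockout than to WT. The targeted gene was thus at 42.2% of its WT level in Pcgf1-/-. In Pcgf1-/-+Pcgf1 the value under the symbol Pcgf1 was 56.3% of that in WT. The lists do not separate the FLAG-tagged cDNA from the targeted gene, so the latter value is not a level of the gene alone. On log2(FPKM + 0.1), the scale of all log2 ratios here, Pcgf1 differed by -1.23 between Pcgf1-/- and WT. Its log2 ratio was 0.41 between Pcgf1-/-+Pcgf1 and Pcgf1-/-, and -0.82 between Pcgf1-/-+Pcgf1 and WT.

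Pcgf1 was the 1 member of 6 past 2-fold in Pcgf1-/- against WT, where 7.14% of all 25346 genes were past 2-fold and 4.98% were more than 2-fold lower. None of the 6 was past 2-fold between Pcgf1-/-+Pcgf1 and Pcgf1-/-, beside 8.57% of all genes, or between Pcgf1-/-+Pcgf1 and WT, beside 6.34%. A closer background is given by the 5875 genes of at least 5 FPKM in every library, a group that holds all members but Bmi1. Among these genes 1.17% were more than 2-fold lower in Pcgf1-/- than in WT, and 0.460% had a lower ratio than Pcgf1. For Pcgf1-/-+Pcgf1 against WT 1.89% of them had a lower ratio than Pcgf1. The 3 comparisons share libraries pairwise, and their values are not independent of each other.

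The knockout library differed from both others in the form of the Pcgf1 mRNA as well as in its level. It listed a form in which exon 1, ending at 83078478, was joined to exon 4, starting at 83079434. This form leaves out exons 2 and 3 and carried the whole 5.88 FPKM, with 0 for its counterpart with both exons. It was not listed in WT or in the rescued cells. The study placed its sgRNAs in exons 2 and 3 and reported the loss of 259 bases from the Pcgf1 mRNA. The exons left out have 259 coding bases and hold all 117 bases of the RING stretch, here in capitals, from chr6:83078895-83079268 without the intron between them.
Pcgf1 exons 2 and 3: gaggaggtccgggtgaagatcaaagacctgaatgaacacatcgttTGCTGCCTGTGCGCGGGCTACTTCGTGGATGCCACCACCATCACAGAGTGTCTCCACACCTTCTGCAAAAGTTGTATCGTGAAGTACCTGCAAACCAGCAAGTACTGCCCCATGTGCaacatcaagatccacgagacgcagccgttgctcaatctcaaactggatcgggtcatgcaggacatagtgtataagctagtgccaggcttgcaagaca
The join in the WT transcript and the one listed in Pcgf1-/- read as follows over 24 bases on each side, with the downstream exon in capitals.
Exon 1 to exon 2: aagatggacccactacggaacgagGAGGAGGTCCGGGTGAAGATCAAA
Exon 1 to exon 4: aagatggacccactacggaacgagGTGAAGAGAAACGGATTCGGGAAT
Since 259 bases leave a remainder of 1 on division by 3, the frame read from the start codon changes at the new join.

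A further event in the lists concerned exons 4 and 5 of Pcgf1 and needs the splice site at the end of exon 3. Its form with both exons had 14.0 FPKM in WT, 0 in Pcgf1-/- and 7.86 in the rescued cells. All of the Pcgf1 signal in WT and in Pcgf1-/-+Pcgf1 was thus listed for a form that passes from exon 3 into exon 4, and none of it in Pcgf1-/-. For the rescued cells this does not show how transcripts of the targeted gene were spliced, since the lists do not separate them from the FLAG-tagged cDNA. The last exons were shared by the 3 libraries, with one last exon, 83080710 to 83080855, carrying the whole signal in each. The coding exon from 83080054 to 83080140, exon 7, also carried the whole signal in each library.

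As a description of how often such a pattern appears, skipping of several exons was counted over all loci. The WT, Pcgf1-/- and Pcgf1-/-+Pcgf1 lists held 4409, 4424 and 4431 such events, of which 192, 219 and 246 stood in that list alone. Of the latter, 28, 33 and 25 had signal in the skipped form only, as at Pcgf1, and 3, 6 and 8 of these had at least 5 FPKM. With a single gene name there remained 1 in WT (Tpd52), 1 in Pcgf1-/- (Pcgf1 itself) and 2 in the rescued cells (Gm13225 and Rybp). Events of this kind were therefore seen in each library. The 1 at Pcgf1 was among 33 in Pcgf1-/- before the last filters and the only 1 there after them. These filters copy the traits of the Pcgf1 event, so it had to remain. Exons 2 and 3 of Pcgf1 were the targets of the sgRNAs, and the counts are no background for an edit made by design.

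The listed start of the Pcgf1 transcripts also differed. In WT and in Pcgf1-/-+Pcgf1 all signal was listed under the first exon from 83078346 to 83078478, which holds the start codon. Transcripts of the lentiviral cDNA and of the gene are not separated in the lists. For the rescued cells the listed exon therefore does not show where transcription started. In Pcgf1-/- 4.86 FPKM started at this exon. A further 1.02 FPKM (17.3% of the signal) started at an annotated noncoding first exon upstream, from 83077869 to 83078238, against 0 in both other libraries. The join from 83078478 to exon 4 carried the whole 5.88 FPKM, so the form with the upstream start also passed through the end of exon 1. In the rescued cells all 7.86 FPKM was listed for the form with exons 2 and 3, the form that the full-length FLAG-tagged cDNA holds and that the list of the Pcgf1-/- cells they came from does not. The lists give FPKM per assembled form and not fragments per exon, so they do not show whether fragments of the exons that both forms share were counted into it.

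The depth behind these values can be read from the smallest values in the lists. For genes with 1 annotated transcript the lowest values pile up at FPKM times kilobases of 0.0517 in WT, 0.0484 in Pcgf1-/- and 0.0498 in the rescued cells. If this step is taken as 1 fragment, the level of Pcgf1 stands for about 248, 112 and 145 fragments on its 918-base main transcript, or about 80.1 in Pcgf1-/- on the shorter form without exons 2 and 3. Bmi1 stands for about 41.9, 56.5 and 48.3 fragments, and each of the other four members for over 250 in every library. These figures describe counting only, and say nothing of the spread between cultures.

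**Figure D2:**
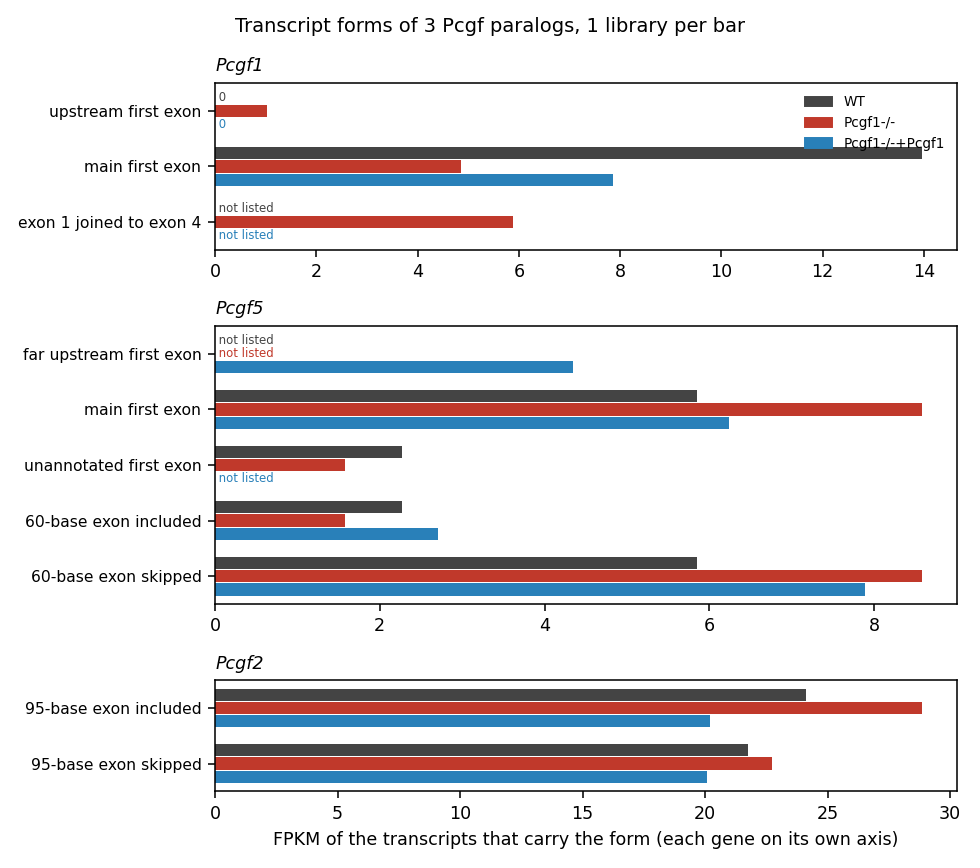
FPKM of transcript forms of Pcgf1 (top), Pcgf5 (middle) and Pcgf2 (bottom), with 1 bar per library (grey WT, red Pcgf1-/-, blue Pcgf1-/-+Pcgf1), a 0 where a form is listed at 0 and a label where it is not listed. The join of exon 1 to exon 4 of Pcgf1 has a bar in Pcgf1-/- alone, at 5.88, and the far upstream first exon of Pcgf5 has one in Pcgf1-/-+Pcgf1 alone, at 4.35.

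Pcgf2 (ENSMUSG00000018537, chr11:97688823-97700497) had 45.9 FPKM in WT, 51.6 in Pcgf1-/- and 40.3 in the rescued cells. The knockout was the highest library and Pcgf1-/-+Pcgf1 the lowest, with a log2 ratio of 0.17 for Pcgf1-/- against WT and -0.36 for Pcgf1-/-+Pcgf1 against Pcgf1-/-. All signal began at the first exon from 97699536 to 97699648 and ended in the last exon from 97689792 to 97690358. The next exon, a noncoding one of 95 bases from 97699206 to 97699300 upstream of the start codon, was present in part of the transcripts. The share of Pcgf2 signal with this exon was 52.6% in WT, 55.9% in Pcgf1-/- and 50.2% in the rescued cells. The largest difference was -5.75 percentage points, between Pcgf1-/-+Pcgf1 and Pcgf1-/-.

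Bmi1 (ENSMUSG00000026739, chr2:18677018-18686629), the close relative of Pcgf2, had 0.602 FPKM in WT, 0.761 in Pcgf1-/- and 0.669 in the rescued cells. Its log2 ratios were 0.29, -0.16 and 0.13 in the order Pcgf1-/- against WT, Pcgf1-/-+Pcgf1 against Pcgf1-/- and Pcgf1-/-+Pcgf1 against WT. In WT and Pcgf1-/-+Pcgf1 all Bmi1 signal began at the first exon from 18680372 to 18680475. In Pcgf1-/- 0.526 FPKM began there and 0.235 FPKM (30.8%) at the annotated first exon farthest upstream, from 18677018 to 18677469.

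Pcgf3 (ENSMUSG00000033623, chr5:108461232-108506976) had 11.3 FPKM in WT, 9.07 in Pcgf1-/- and 8.01 in the rescued cells. WT was the highest library and the log2 ratios to it were -0.31 in Pcgf1-/- and -0.49 in Pcgf1-/-+Pcgf1. Of the 5875 genes of at least 5 FPKM, 81.0% had a higher ratio than Pcgf3 in the first of these comparisons and 90.3% in the second. The WT list holds an exon of 136 bases from 108499791 to 108499926 that GENCODE vM21 does not annotate, present in 8.25 FPKM and skipped in 3.04 FPKM, so that 73.0% of the Pcgf3 signal carried it. This exon is not listed for the other libraries. The last exon was listed with 3763 bases in WT and with 6620 bases, up to the annotated end, in the other libraries. An annotated exon of 65 bases from 108474579 to 108474643, which lies between both exons of the RING stretch and is not part of the main transcript, was skipped in all of the signal in each library.

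Pcgf5 (ENSMUSG00000024805, chr19:36348309-36460970), the closest functional relative of Pcgf3, had 8.12 FPKM in WT, 10.2 in Pcgf1-/- and 10.6 in the rescued cells. Here WT was the lowest library. The log2 ratio was 0.32 in Pcgf1-/- against WT and 0.38 in the rescued cells against WT, and 0.06 between both other libraries. Among the 5875 genes of at least 5 FPKM, 10.9% had a higher ratio than Pcgf5 in Pcgf1-/- against WT and 5.04% in the rescued cells against WT. The ratio of Pcgf5 to Pcgf3 was 0.719 in WT, 1.12 in Pcgf1-/- and 1.32 in the rescued cells. Their sum was 19.4, 19.2 and 18.6 FPKM in this order, so that the division between both genes differed more between libraries than their total. The last exon of Pcgf5 was listed with 572 bases in WT and Pcgf1-/- and with 232 in the rescued cells. That of Pcgf3 had 3763 bases in WT and 6620 in the other libraries. FPKM is a level per length, and the part of these listed lengths in the levels, ranks and ratios of both genes was not tested.

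Pcgf5 was the member with the most varied start of transcription. A first exon from 36409748 to 36409909 carried 5.85 FPKM in WT, 8.58 in Pcgf1-/- and 6.24 in the rescued cells. A first exon that ends at 36410310, a splice site GENCODE vM21 does not annotate, carried 2.27 FPKM in WT and 1.57 in Pcgf1-/- and is not listed in Pcgf1-/-+Pcgf1. In the rescued cells a first exon far upstream, from 36348478 to 36348569, carried 4.35 FPKM (41.1% of the signal), and this start is not listed for WT or Pcgf1-/-. An annotated first exon from 36379067 to 36379159 was listed at 0 in all 3 libraries. All of these exons lie before the start codon.

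The 100 bases before each of the annotated starts of Pcgf5 in RefSeq (GRCm38.p6) are shown, since these starts were used to a different degree, with each CG dinucleotide in capitals. They lie on the plus strand at chr19:36348229-36348328, chr19:36378967-36379066 and chr19:36409648-36409747.
Far upstream start: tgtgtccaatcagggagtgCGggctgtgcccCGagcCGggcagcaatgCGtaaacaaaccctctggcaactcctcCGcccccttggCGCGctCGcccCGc
Start listed at 0: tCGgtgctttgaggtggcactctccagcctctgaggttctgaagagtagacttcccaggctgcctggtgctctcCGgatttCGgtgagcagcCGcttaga
Main start: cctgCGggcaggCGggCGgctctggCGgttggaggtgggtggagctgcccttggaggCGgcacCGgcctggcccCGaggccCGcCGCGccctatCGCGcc
In the 250 bases before the start there are 28 CG dinucleotides (read on the plus strand, which for CG equals both strands) at the main start, 23 at the far upstream start and 4 at the start listed at 0. The median over 32851 annotated promoters was 6, and 92.1% of them held at least 1. The promoters of Bmi1, Pcgf6, Pcgf3 and Pcgf2 held 21, 14, 16 and 5. The count is a description of the sequence and does not say which factor binds there.

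Within the coding sequence of Pcgf5 an exon of 60 bases, chr19:36450564-36450623, was present in part of the transcripts. Its length is a multiple of 3, so that both forms keep the frame.
Pcgf5 exon of 60 bases: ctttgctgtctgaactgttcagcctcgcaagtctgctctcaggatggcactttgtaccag
The share of Pcgf5 signal with this exon was 28.0% in WT, 15.5% in Pcgf1-/- and 25.5% in the rescued cells. The knockout was the lowest library, with a difference of -12.5 percentage points to WT, and the rescued cells had one of -2.49 points to WT. Among all single skipped exons with both forms seen, 63.2% differed by more than 10 percentage points between Pcgf1-/- and WT, 61.5% between the rescued and the knockout cells and 62.6% between the rescued cells and WT, so that a difference of this size was common. In WT and Pcgf1-/- the FPKM with the exon (2.27 and 1.57) equals that of the unannotated first exon, and the FPKM without it (5.85 and 8.58) equals that of the main first exon. The 2 measures therefore describe the same pair of transcripts in these libraries and are not separate evidence.

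Pcgf6 (ENSMUSG00000025050, chr19:47033617-47050906), the second most abundant member, had 26.0 FPKM in WT, 21.0 in Pcgf1-/- and 27.3 in the rescued cells. Here the knockout was the lowest library, and WT and Pcgf1-/-+Pcgf1 were close together. The log2 ratios were -0.31 for Pcgf1-/- against WT, 0.38 for Pcgf1-/-+Pcgf1 against Pcgf1-/- and 0.07 for Pcgf1-/-+Pcgf1 against WT. Between the rescued and the knockout cells 8.95% of the genes of at least 5 FPKM had a higher ratio than Pcgf6, and 7.68% had a higher ratio than Pcgf1. Pcgf6 had 1 first and 1 last exon in each library and no splice event. Its first exon was listed with 439, 466 and 485 bases in WT, Pcgf1-/- and Pcgf1-/-+Pcgf1.

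**Figure D3:**
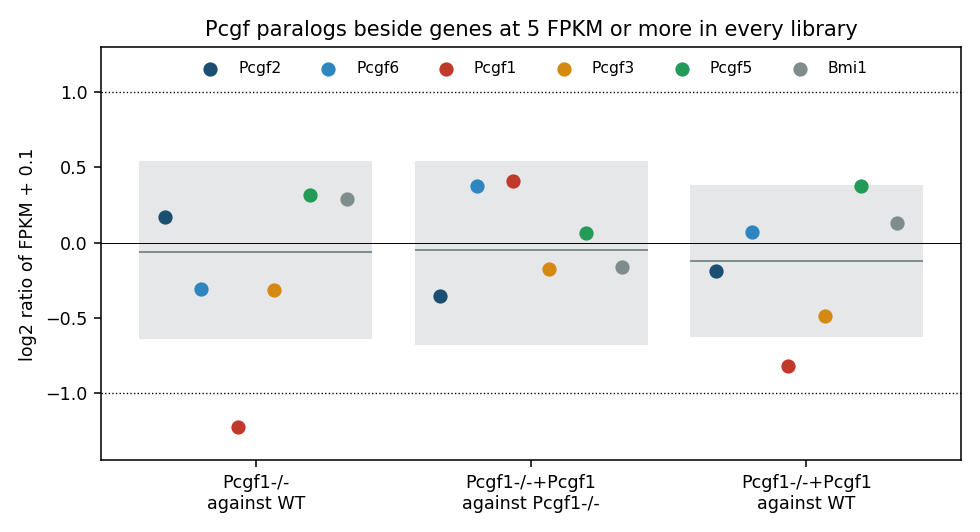
Log2 ratio of each Pcgf gene in the 3 comparisons (points, on FPKM + 0.1), beside the range from the 5th to the 95th percentile (grey box) and the median (grey line) of the 5875 genes of at least 5 FPKM in every library, with dotted lines at 2-fold. Pcgf1 lies at -1.23 and -0.82, below the box in both comparisons with WT, and the other 5 genes lie inside the box in all 3.

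Apart from Pcgf1, the members lay between -0.31 and 0.32 in Pcgf1-/- against WT, with 3 of the other 5 above 0 and a median of 0.17. The middle 90% of the genes of at least 5 FPKM lay between -0.64 and 0.54 in this comparison. The other 5 members lay between -0.36 and 0.38 in the rescued cells against Pcgf1-/- and between -0.49 and 0.38 in the rescued cells against WT. The median of all 6 was -0.07, -0.05 and -0.06 in the 3 comparisons, beside medians of -0.06, -0.05 and -0.12 for the genes of at least 5 FPKM. Taken relative to these medians, Pcgf1 was at -1.17, 0.46 and -0.70. In Pcgf1-/-+Pcgf1 against WT, where the median lay farthest from 0, Pcgf3 was then at -0.37, Pcgf5 at 0.50, Bmi1 at 0.25, Pcgf6 at 0.19 and Pcgf2 at -0.06, and no member changed its sign.

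The summed level of the 6 genes was 106 FPKM in WT, 98.4 in Pcgf1-/- and 94.7 in the rescued cells, and 91.9, 92.5 and 86.9 FPKM without Pcgf1. The sum of the other 5 members was thus nearly level between WT and Pcgf1-/-. The share of Pcgf1 in the sum was 13.2% in WT, 5.98% in Pcgf1-/- and 8.30% in the rescued cells. That of Pcgf2 was 43.3%, 52.4% and 42.5%, and that of Pcgf6 was 24.6%, 21.3% and 28.8%. Pcgf3 held 10.7%, 9.21% and 8.46%, and Pcgf5 held 7.67%, 10.3% and 11.2%. Bmi1 stayed under 1% in each library. These are shares of mRNA, and the files hold no measure of the proteins or of the complexes.

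**Figure D4:**
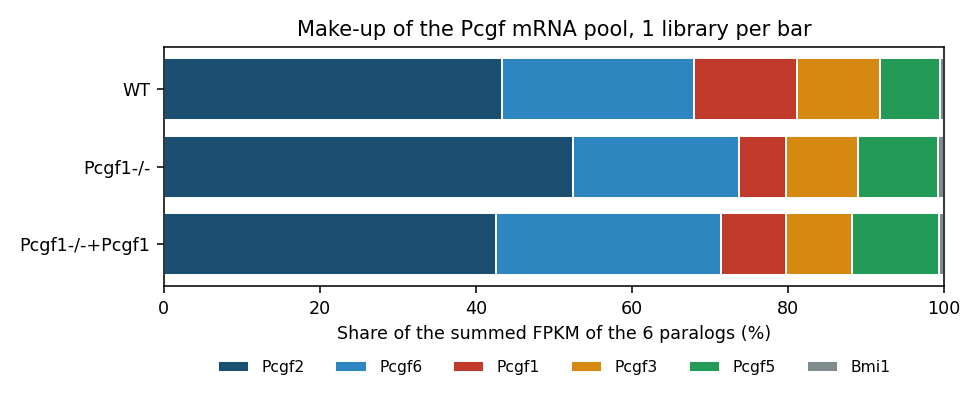
Share of each Pcgf gene in the summed FPKM of the 6 genes, in percent, with 1 bar per library. The red part, Pcgf1, is 13.2% in WT, 5.98% in Pcgf1-/- and 8.30% in the rescued cells, and Pcgf2 (dark blue) is the largest part in each bar, up to 52.4% in Pcgf1-/-.

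Of 34 further PRC1 subunits, 28 were measured under their own name in all 3 libraries. In Pcgf1-/- against WT 0 were more than 2-fold higher and 1 was more than 2-fold lower, with a median log2 ratio of 0.02. Over all genes 2.16% were higher and 4.98% lower by this limit. The lower subunit was Phc1, a Polyhomeotic subunit that joins PRC1.2 and PRC1.4, with 197 FPKM in WT, 94.4 in Pcgf1-/- and 161 in the rescued cells and a log2 ratio of -1.06. With median-of-ratios scaling, Phc1 was at -0.95 and no longer past 2-fold, and the partner counts were 1 higher and 0 lower. Phc1 was also the partner of Pcgf2 and Bmi1 with the highest level in WT. Between the rescued and the knockout cells 0 were higher and 2 were lower, with a median of -0.06, beside 6.35% higher and 2.22% lower over all genes. Between the rescued cells and WT 1 was higher and 2 were lower, with a median of -0.03, beside 3.99% and 2.36% over all genes.

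Among the PRC1.1 subunits that work with Pcgf1, Bcor, the corepressor that binds Pcgf1 directly, had 4.06 FPKM in WT, 5.33 in Pcgf1-/- and 9.49 in the rescued cells. It was the subunit more than 2-fold higher in Pcgf1-/-+Pcgf1 than in WT, with a log2 ratio of 1.204. The deubiquitinase Usp7, the most abundant measured subunit of PRC1.1 in WT, had 110 FPKM in WT, 103 in Pcgf1-/- and 122 in the rescued cells. None of the 3 measured subunits of PRC1.1 was past 2-fold in Pcgf1-/- against WT.

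Rybp, which together with Yaf2 marks the variant complexes of all Pcgf proteins, had 30.3 FPKM in WT, 40.3 in Pcgf1-/- and 12.6 in the rescued cells. Its log2 ratio in Pcgf1-/-+Pcgf1 was -1.67 against Pcgf1-/- and -1.25 against WT, and in that library its last-exon sum was 0. The list of the rescued cells also held, for Rybp, a skip of several exons that stood in that list alone, with signal in the skipped form only. The listed form of Rybp thus differed in this library, and its part in the lower value was not tested. Cbx8, a chromodomain subunit of canonical PRC1, was low throughout, with 0.702, 0.945 and 0.270 FPKM, and its log2 ratios were -1.50 and -1.12 in the same comparisons. Rybp and Cbx8 were the 2 lower subunits in both.

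Ring1, the catalytic partner measured under its own name, had 3.29, 3.27 and 3.29 FPKM in WT, Pcgf1-/- and Pcgf1-/-+Pcgf1. Of the 5 measured subunits that work with Pcgf3 and Pcgf5 none was past 2-fold in any comparison by the larger of the first-exon and last-exon sums. The most abundant in WT, the casein kinase subunit Csnk2b, had 139, 138 and 119 FPKM. Of the 8 measured subunits that work with Pcgf6 none was past 2-fold either, and the most abundant in WT, the deacetylase Hdac1, had 138, 140 and 134 FPKM.

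**Figure D5:**
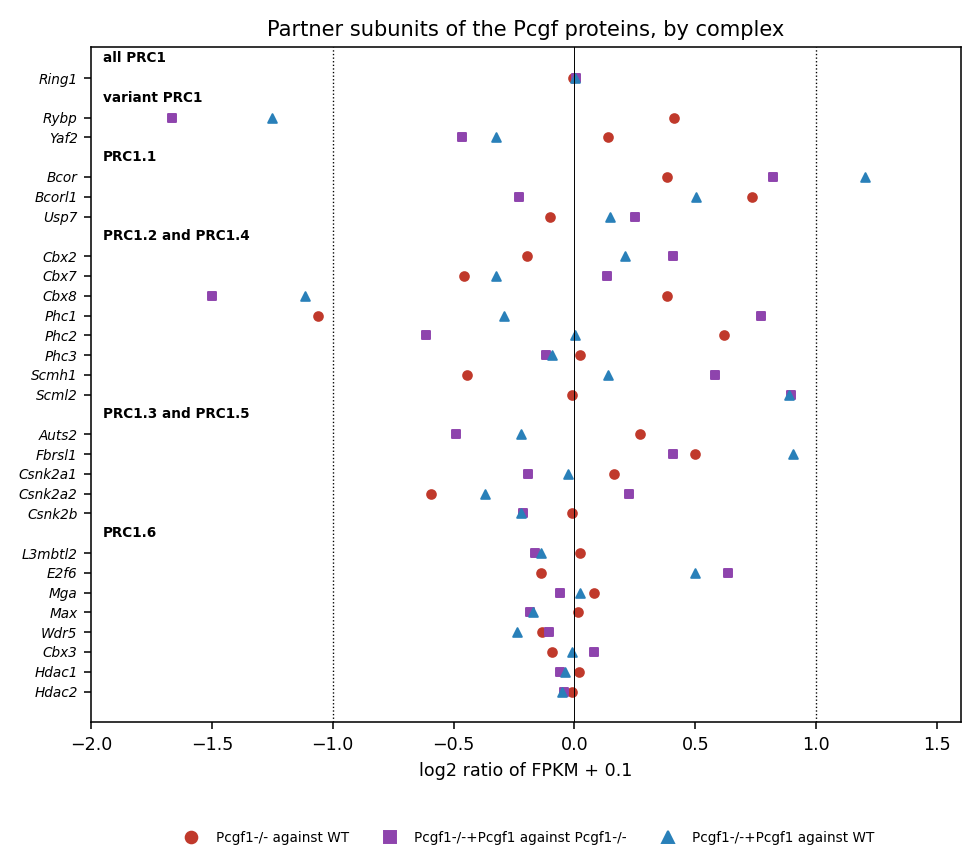
Log2 ratio of FPKM + 0.1 for 27 of the 28 measured partner subunits, grouped by the complex they belong to, in the 3 comparisons (red circle Pcgf1-/- against WT, violet square Pcgf1-/-+Pcgf1 against Pcgf1-/-, blue triangle Pcgf1-/-+Pcgf1 against WT), with dotted lines at 2-fold. Phc1, Rybp, Cbx8 and Bcor have a point outside the lines, and the 8 subunits of PRC1.6 lie inside them in all comparisons.

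The genes whose pattern over the 3 libraries was most like that of Pcgf1 were taken from the 8623 genes of at least 1 FPKM in each, by the distance between centred log2 values. The nearest was Cfp (properdin, a complement factor) at a distance of 0.0324, with 4.91 FPKM in WT, 1.97 in Pcgf1-/- and 2.71 in the rescued cells. Reep2, Pde4d, Zfc3h1 and Lmbrd1 followed at distances from 0.0621 to 0.0696. In all 87 genes lay within 0.25 of Pcgf1.

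The libraries carried the markers of ES cells. Of 10 fixed markers 8 were measured under their own name, with summed levels of 2506, 2567 and 2152 FPKM in WT, Pcgf1-/- and Pcgf1-/-+Pcgf1. In Pcgf1-/- against WT 5 of the 8 had a log2 ratio above 0 and 3 below 0, with a median of 0.16 and none past 2-fold. Between the rescued and the knockout cells the median was -0.35, and 1 of the 8 was past 2-fold, the pluripotency factor Nanog, with 68.2 FPKM in WT, 46.3 in Pcgf1-/- and 123 in the rescued cells. None of the 8 was past 2-fold between the rescued cells and WT. Of 10 markers of feeder fibroblasts 9 were measured, with sums of 17.5, 7.76 and 18.6 FPKM, and 3.32, 1.37 and 5.13 FPKM without Thy1, which made up most of the sum. In Pcgf1-/- against WT 3 of the 9 were more than 2-fold lower and 0 higher, and between the rescued and the knockout cells 5 of the 9 were higher and 0 lower. Between the rescued cells and WT 3 were higher and 1 was lower. Over all genes 4.98% were lower and 2.16% higher in the first of these comparisons. In the second 6.35% were higher and 2.22% lower, and in the third 3.99% were higher and 2.36% lower. All of the 9 but Thy1 and Col1a1 were under 1 FPKM in WT, where a ratio rests on few fragments. Col1a1 had 1.88, 0.390 and 2.21 FPKM, Dcn had 0.352, 0.779 and 1.18, and Postn was at 0 in each library. Both sums were lowest in Pcgf1-/- and above their WT value in the rescued cells. The median log2 ratio of the 9 between the rescued cells and WT was 0. The 1 lower of them in that comparison was Col1a2, with 0.635, 0.0213 and 0.148 FPKM in WT, Pcgf1-/- and the rescued cells. The part of feeder cells in the values of the members was not tested. All 10 markers of differentiated cells were measured, with sums of 75.2, 75.4 and 35.2 FPKM, of which the keratin Krt8 made up 68.9, 66.3 and 28.9. The sums thus say little of the other markers, of which all but Nes and Eomes were under 1 FPKM in WT. In Pcgf1-/- against WT 1 of the 10 was more than 2-fold higher and 0 lower. Between the rescued and the knockout cells 0 were higher and 3 lower, and between the rescued cells and WT 0 were higher and 1 lower, beside the shares over all genes given above.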

How the data were processed

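Polyadenylated RNA from 3 ES cell samples, 1 per group, was sequenced as read pairs on a HiSeq X-Ten from libraries of a kit that does not mark strand. According to the study's methods, reads were aligned to mm10 with TopHat. The submitters' processing notes name TopHat2 2.0.12, Cufflinks 2.2.1 and HTSeq 0.6.0. The authors deposited 1 event list per sample, with a row for each first or last exon, skipped exon or alternative exon end and, in it, the FPKM of the transcripts with that event. Which program wrote the lists is not given in the sources used here. The lists have 155552 to 156379 rows, of which 62.0% to 63.6% are at 0, and hold no counts.

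Gene values were formed as stated in the report. Names that hold several genes in any list were left out. Ratios were taken on log2(FPKM + 0.1), which understates the change of low genes, and more than 2-fold was called. Without replicates no test was run and no p-value is given. Replicate error is unknown, and counting error alone was estimated from the steps of low values. Transcript structures came from GENCODE vM21. Promoters came from RefSeq GRCm38.p6, which matched 5 of the 6 members. The share of an exon is the FPKM of the form with it over the sum of both forms. An event that is not listed was not counted as 0. The members, partner lists and markers were chosen with earlier results of these data known. Named partners are those past 2-fold, also with last exons only, and, in each complex, that with the highest WT level. The single cell type markers were named after their values were seen. In all, 6 alternative settings were tried. The script was tested on simulated data. Software was Python 3.11.15 with pandas 2.3.3, numpy 2.4.6, biopython 1.88 and matplotlib 3.10.9. One partner gene, though counted in the list, is not reported here.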

Additional observations from a re-analysis of the deposited data

How the results depend on the processing

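No paired analysis was possible because each group has 1 library and no difference comes from a test. Pseudocounts of 0.01 and 1 FPKM, first exons only, last exons only, median-of-ratios scaling and only genes of at least 1 FPKM in either library were tried for each comparison. First exons only and last exons only could not move a member, since both sums were equal for all 6. The limit of 1 FPKM left each member's ratio as it was and left out Bmi1. With the other settings, the pseudocounts and the scaling, no log2 ratio of a member changed its sign or its side of 2-fold. For Pcgf1 in Pcgf1-/- against WT it ranged from -1.24 to -1.12, and 1, 0 and 0 members were past 2-fold throughout. Counts over all genes moved with the treatment of low values. With pseudocounts of 0.01 and 1 and with genes of at least 1 FPKM, 3267, 454 and 858 genes were past 2-fold in Pcgf1-/- against WT. In Pcgf1-/-+Pcgf1 against Pcgf1-/- they were 3656, 585 and 1036, and in Pcgf1-/-+Pcgf1 against WT 3002, 329 and 624. The counts with genes of at least 1 FPKM are out of fewer genes, since genes below this level in both libraries were left out. Among partners, 2 were past 2-fold in Pcgf1-/- against WT with a pseudocount of 0.01 and 2 with last exons only. In Pcgf1-/-+Pcgf1 against Pcgf1-/- there were 3 with a pseudocount of 0.01, 1 with a pseudocount of 1, 1 with genes of at least 1 FPKM and 4 with last exons only. In Pcgf1-/-+Pcgf1 against WT there were 4, 2, 2 and 5 in the same order. Over all genes 1904, 2225 and 1781 were past 2-fold with last exons only, in Pcgf1-/- against WT, Pcgf1-/-+Pcgf1 against Pcgf1-/- and Pcgf1-/-+Pcgf1 against WT. With median-of-ratios scaling Phc1 was no longer past 2-fold in Pcgf1-/- against WT (-0.95). The partner total stayed at 1 there, but with 1 higher and 0 lower in place of 0 higher and 1 lower. The partners added with last exons only were Csnk2a1, Csnk2a2 and Fbrsl1, which stayed within 2-fold by their first exons. In WT, Pcgf1-/- and Pcgf1-/-+Pcgf1 the last-exon sums of Csnk2a1 were 63.7, 17.9 and 62.5 FPKM. Those of Csnk2a2 were 31.0, 20.5 and 5.20, and those of Fbrsl1 were 8.30, 15.3 and 22.8. Why these sums differed was not tested. The cause of the other changes was not tested either, apart from low genes, whose ratio a smaller pseudocount enlarges by construction. Depth limits Bmi1 most, and the spread between cultures is unknown for all members.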

Other observations

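Partner genes that share a listed locus with other genes in at least 1 library were kept out of the counts. The locus of Rnf2, the main catalytic partner of the Pcgf proteins in ES cells, had 36.9 FPKM in WT and 39.4 in Pcgf1-/- under its own name, and 28.3 in Pcgf1-/-+Pcgf1, where it was joined with Gm36527. The locus of Kdm2b, the subunit of PRC1.1 that binds CpG islands, was joined with Gm2479 and a further transcript in each library, and its first exons summed to 22.1 FPKM in WT, 19.0 in Pcgf1-/- and 21.1 in the rescued Pcgf1-/-+Pcgf1 cells, while its last exons summed to 0. Skp1a, also of PRC1.1, had 349 FPKM in Pcgf1-/- and 308 in Pcgf1-/-+Pcgf1 under its own name, and lay in WT in a locus of 4 names with 345 FPKM. The locus of Fbrs, a partner of Pcgf3 and Pcgf5, had 5.81, 4.47 and 5.52 FPKM in WT, Pcgf1-/- and Pcgf1-/-+Pcgf1. The locus that holds Cbx6 with Nptxr and Npcd had 11.1, 12.9 and 10.5 FPKM. No FPKM of the joined loci can be assigned to 1 of their genes.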
